A study of Mus musculus with 3 samples.

Results

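*Cyp26a1*, *Cyp26b1*, *Crabp1*, *Crabp2*, *Stra6*, *Dhrs3*, *Aldh1a1*, *Aldh1a2* and *Aldh1a3* take up, make, carry or break down retinoids, and several of them are known to rise when cells receive retinoic acid. These 9 genes, of 31053 in the count tables, were picked by symbol. They were measured by droplet RNA sequencing of single cells from subcutaneous implants of female CD-1 mice aged 6 to 8 weeks, taken on day 5. All 3 groups were of CD-1 genotype and carried Matrigel, a basement membrane gel. The Matrigel-only mice had gel without rhBMP2 and were given nothing by mouth. The Vehicle mice had rhBMP2 in the gel, a recombinant bone morphogenetic protein that starts ectopic cartilage and bone, and were given corn oil with DMSO. The Palo mice had the same rhBMP2 gel and were given palovarotene, an agonist selective for retinoic acid receptor gamma, at 4 mg/kg daily. Each group is 1 library made from several ectopic masses, and no label ties a cell to its mass, so no test between groups was possible and each interval below covers counting error alone. Palo over Vehicle differs by the drug under rhBMP2, Vehicle over Matrigel-only by rhBMP2 and the gavage, and Palo over Matrigel-only by all of these, with each library used in more than 1 comparison.

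Retinol enters cells through the receptor STRA6 and is oxidized to retinal, a step that DHRS3 runs in reverse. The ALDH1A enzymes then oxidize retinal to retinoic acid, which CRABP1 and CRABP2 bind in the cytoplasm and which CYP26A1 and CYP26B1 hydroxylate for clearance. Retinoic acid acts through nuclear receptors that bind DNA at repeated hexamers, and low retinoid signaling in skeletal precursors is known to go with cartilage formation, which excess retinoid blocks. *Cyp26a1*, *Cyp26b1*, *Dhrs3*, *Stra6* and *Crabp2* are known as genes that retinoic acid induces in many tissues, and a cell that makes retinoic acid need not be the cell that breaks it down.

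The promoter windows of RefSeq, from 250 bases before to 50 bases after a start site in the build GRCm38.p6, were searched for the hexamer AGGTCA and its variants (AGTTCA as well as GGGTCA or else GGTTCA) on both strands, overlaps allowed. A pair of such hexamers in the same orientation with a spacer of 5 bases, the form classically bound by retinoic acid receptors, was the main motif. Of the 9 genes, 7 had a window, and *Crabp2* and *Aldh1a3* had none. The paired motif stood in the window of *Cyp26a1* alone among these 7, and in that of *Rarb*, a receptor gene known for such an element, among 34 other pathway genes with a window. Of all 32851 windows, 0.0974% held it, and 43.7% held at least 1 hexamer. No pair with a spacer of 1 or 2 bases was found in the windows of the 7 genes, against 0.222% and 0.268% of all windows. These are letter matches and were not tested for binding. The windows of *Cyp26a1* and *Rarb* are shown for the paired motif, and that of *Crabp1*, the gene with the largest ratio of levels between libraries, for comparison. Capitals mark the hexamers, and each sequence is written 5′ to 3′ on the strand of its gene.
Cyp26a1, chr19:37697558-37697857, plus strand: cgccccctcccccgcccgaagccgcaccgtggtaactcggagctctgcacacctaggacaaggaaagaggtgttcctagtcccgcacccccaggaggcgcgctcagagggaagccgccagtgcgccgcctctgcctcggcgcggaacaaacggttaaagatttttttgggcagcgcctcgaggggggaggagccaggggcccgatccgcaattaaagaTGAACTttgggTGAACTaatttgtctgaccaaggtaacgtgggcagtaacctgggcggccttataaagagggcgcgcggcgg
Rarb, chr14:16575427-16575726, minus strand: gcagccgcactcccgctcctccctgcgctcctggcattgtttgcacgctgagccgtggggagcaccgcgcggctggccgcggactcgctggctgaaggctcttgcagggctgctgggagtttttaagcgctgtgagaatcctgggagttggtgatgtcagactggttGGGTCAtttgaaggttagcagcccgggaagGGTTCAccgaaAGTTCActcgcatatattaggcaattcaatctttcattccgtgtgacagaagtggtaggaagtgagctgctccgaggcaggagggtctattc
Crabp1, chr9:54764498-54764797, plus strand: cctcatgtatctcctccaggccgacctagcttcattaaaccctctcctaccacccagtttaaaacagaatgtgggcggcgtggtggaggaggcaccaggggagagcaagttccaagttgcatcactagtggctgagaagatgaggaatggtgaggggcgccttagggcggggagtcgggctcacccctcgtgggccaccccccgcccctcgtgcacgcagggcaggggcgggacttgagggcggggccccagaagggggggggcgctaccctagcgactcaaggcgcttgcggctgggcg

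In *Cyp26a1* the paired motif lay on the opposite strand, from 32 to 16 bases before the start site, and in *Rarb* on the gene's own strand, from 53 to 37 bases before it. *Crabp1* held neither the pair nor a hexamer in its window. The other windows with a hexamer were 1 of the 4 of *Stra6* and 1 of the 2 of *Aldh1a1*, while those of *Cyp26b1*, *Dhrs3* and *Aldh1a2* had none. In the annotation of mm10 all 9 are protein-coding genes. *Cyp26a1* lies on chromosome 19 from 37697798 to 37701536 and *Aldh1a1* on the same chromosome from 20492715 to 20643465. *Crabp1*, *Stra6* and *Aldh1a2* lie on chromosome 9, from 54764748 to 54773110, from 58063788 to 58153996 and from 71215789 to 71296243. *Cyp26b1* lies on chromosome 6 from 84571414 to 84593908, *Crabp2* on chromosome 3 from 87948666 to 87953376, *Dhrs3* on chromosome 4 from 144892827 to 144928209 and *Aldh1a3* on chromosome 7 from 66390890 to 66427517.

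Cells with 200 to 6000 genes and at most 5% mitochondrial counts were kept, 8728 Matrigel-only, 5478 Vehicle and 7297 Palo cells. A cell counted as stromal when *Col1a1*, *Col1a2*, *Col3a1*, *Dcn* and *Lum* made up at least 1% of its unique molecular identifiers (UMIs), and as a macrophage when they made up less and *Csf1r* or *C1qa* was detected. This gave 2085, 1373 and 1184 stromal cells and 5812, 3253 and 5661 macrophages in the Matrigel-only, Vehicle and Palo libraries, an order kept for all triplets of values below. The 10 stromal markers outside the rule, such as *Pdgfra* and *Prrx1*, summed to between 20592 and 29963 UMIs per 1000000 of the class (CPM) in stromal cells and to between 158 and 269 CPM in macrophages. The 12 macrophage markers, *Csf1r* and *C1qa* of the rule among them, summed to 28947, 24016 and 30690 CPM in macrophages. In stromal cells they summed to between 371 and 1103 CPM. In macrophages, T and NK cell markers summed to 3.54, 42.0 and 3.57 CPM and granulocyte markers to 38.1, 101 and 33.2 CPM. Basophil and mast cell markers summed to 0.884, 27.4 and 1.93 CPM there. The sum of B cell markers went the other way, at 128, 58.0 and 89.1 CPM, nearly all of it *Ighm* at 128, 57.5 and 87.1 CPM. The Vehicle stromal cells were the deepest, with medians of 9082, 17114 and 12955 UMIs per cell, so shares of cells were set at one depth by thinning each cell to 3000 UMIs in stroma and 1100 in macrophages. Between 8 and 17 cell barcodes were shared by any pair of libraries.

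A member counted as past 2-fold when its CPM, with 5 CPM added, differed at least 2-fold between libraries and reached 5 CPM in either. Palo stromal cells stood above Vehicle in *Crabp1* and *Aldh1a1* and below it in *Cyp26b1*, 2 higher and 1 lower of the 6 members that reached 5 CPM, where 4.4% of all 10579 genes tested were higher and 3.73% lower. Vehicle stromal cells stood below Matrigel-only in *Crabp1* and *Aldh1a1*, 2 lower and 0 higher of 6, beside 7.04% lower and 3.68% higher among all genes. *Cyp26b1* lay near the limit, 2.02-fold higher in Vehicle as a plain ratio (1.87 to 2.19) and 1.92-fold with 5 CPM added. Palo and Matrigel-only stromal cells differed past 2-fold in 0 of 6 members, beside 0.277% higher and 0.946% lower. The median log2 ratio of the 6 members was -0.12 for Palo over Vehicle, against 0.01 over all genes tested. *Cyp26a1*, *Stra6* and *Aldh1a2* stayed under 5 CPM in stromal cells of every library.

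In macrophages 3 members reached 5 CPM, *Dhrs3*, *Aldh1a2* and *Cyp26b1*. For Palo over Vehicle, *Aldh1a2* was past 2-fold higher and *Cyp26b1* lower, 1 of 3 each way, beside 0.906% higher and 3.3% lower among all 9819 genes tested. For Vehicle over Matrigel-only *Aldh1a2* was past 2-fold lower, 1 lower and 0 higher of 3, beside 1.23% lower and 2.77% higher. For Palo over Matrigel-only 0 of 2 members were past it, beside 0.443% higher and 0.721% lower. The median of all genes lay at -0.14 on the log2 scale in Palo over Vehicle and in Palo over Matrigel-only macrophages. With TMM scaling, which removes that shift, 129 genes were higher and 250 lower in Palo over Vehicle in place of 89 and 324, and *Cyp26b1*, which lay right at the limit with a log2 ratio of -1.0, was no longer past it at -0.95. For Palo over Matrigel-only the counts with TMM were 64 higher and 46 lower in place of 43 and 70.

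**Figure D1:**
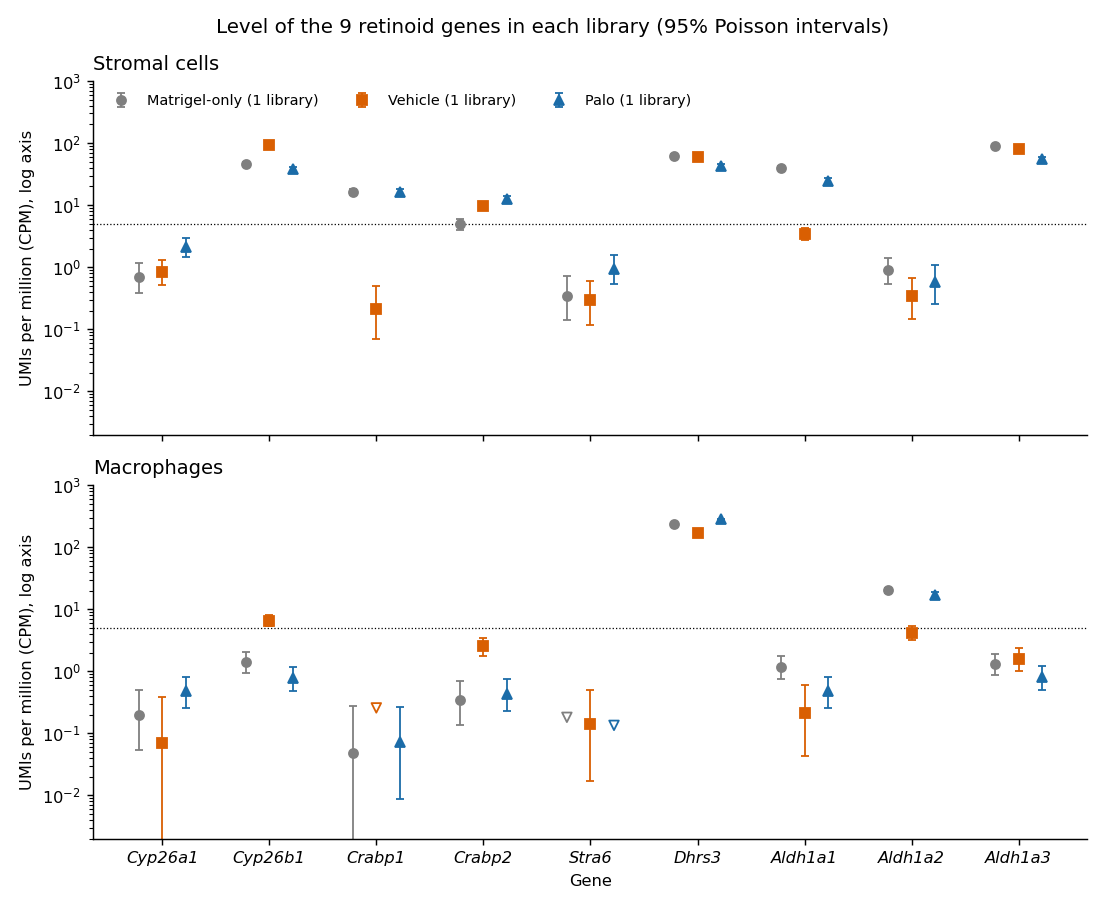
CPM (log axis) of each member in stromal cells and macrophages, 1 point for each library, with exact Poisson 95% intervals; a hollow triangle marks the upper bound where a library held 0 UMIs, and the dotted line is 5 CPM. *Crabp1* and *Aldh1a1* are lowest in the Vehicle stroma, *Cyp26b1* is highest there, and *Aldh1a2* lies above 5 CPM in the macrophages of Matrigel-only and Palo.

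*Stra6*, the membrane receptor that takes retinol from its carrier protein, was barely detected. Its UMIs in stromal cells numbered 7, 7 and 15, or 0.349, 0.297 and 0.947 CPM, and each of them lay outside the cartilage-gene and progenitor-gene cells described below. The ratio of Palo over Vehicle was 3.19 (1.23 to 9.26) and the 3 intervals of the levels overlapped, which leaves the size of any difference loosely set at this depth. Macrophages held 0, 2 and 0 *Stra6* UMIs, where a count of 0 allows up to 0.147 CPM in Matrigel-only and 0.109 CPM in Palo.

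*Dhrs3*, the retinal reductase, was detected in both classes. Macrophages held most of its UMIs, 77.0%, 61.5% and 90.3% of those in the library. In macrophages it measured 234, 172 and 281 CPM, with Palo highest, Vehicle lowest and the 3 intervals apart. Palo stood 1.64-fold above Vehicle (1.56 to 1.71) and 1.20-fold above Matrigel-only (1.16 to 1.24), both under the 2-fold limit. The thinned share of macrophages with a *Dhrs3* UMI gave the same order, 23.9%, 18.1% and 27.8%. With TMM scaling the log2 ratio of Palo over Vehicle was 0.86 in place of 0.69.

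In stromal cells *Dhrs3* ran the other way, at 62.4, 60.7 and 42.0 CPM, with Palo the lowest and the intervals of Matrigel-only and Vehicle overlapping. Palo lay 1.45-fold below Vehicle (1.32 to 1.59). Ranked by the smallest of their ratios over the 3 libraries, *H2-Aa*, *H2-Ab1* and *Cd74*, genes of antigen-presenting cells, came first among the genes higher in stromal cells with a *Dhrs3* UMI than in those without. Macrophage markers in stroma stood at 3.81%, 1.55% and 2.93% of their macrophage level, and macrophage RNA at that share would bring 8.92, 2.65 and 8.23 CPM of *Dhrs3*. In the stromal cells without a *Csf1r* or *C1qa* UMI the levels were 54.8, 58.3 and 38.3 CPM, Palo again the lowest.

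The 3 retinal dehydrogenases, which make retinoic acid, did not all lie in the same cells. *Aldh1a1* and *Aldh1a3* were stromal, with at least 95.3% of their UMIs in stromal cells in every library, and *Aldh1a2* was not, with 3.48%, 8.33% and 1.64% there. *Aldh1a1* and *Aldh1a3* overlapped in part. *Aldh1a3* measured 128 CPM in Matrigel-only stromal cells with an *Aldh1a1* UMI and 74.5 CPM in the others, and 97.3 and 42.7 CPM in Palo. In Vehicle stroma *Aldh1a1* measured 5.16 CPM in cells with an *Aldh1a3* UMI and 2.38 CPM in the others. Cells expressing *Aldh1a3* and cells expressing *Cyp26b1* were largely separate in the 2 libraries without cartilage-gene cells. In Matrigel-only stroma *Aldh1a3* measured 14.0 CPM in cells with a *Cyp26b1* UMI and 97.4 CPM in the others, and in Palo stroma 9.97 and 62.5 CPM. In Vehicle stroma the values were 61.9 and 93.8 CPM.

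*Aldh1a1* measured 39.3, 3.48 and 24.9 CPM in stromal cells, from 788, 82 and 395 UMIs. Vehicle stood far below the other libraries, and the 3 intervals did not overlap. Palo was 7.18-fold above Vehicle (5.65 to 9.22) and Matrigel-only 11.3-fold above it (9.0 to 14.4), while Palo was 1.58-fold below Matrigel-only (1.39 to 1.78). The thinned share of stromal cells with an *Aldh1a1* UMI was 11.3%, 1.27% and 7.79%. *Aldh1a7*, a close paralog of *Aldh1a1*, had at most 5 UMIs in the stromal cells or macrophages of a library, and the last 500 bases of the *Aldh1a1* transcript shared 0 of 476 words of 25 bases with it.

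*Aldh1a3* measured 88.2, 80.4 and 55.1 CPM in stromal cells, with Palo lowest. Palo was 1.46-fold below Vehicle (1.35 to 1.58), and the log2 ratio of -0.51 shrank to -0.01 when each cell weighed the same. The thinned share of cells with its UMI was 20.3%, 13.7% and 12.8%, Vehicle and Palo within each other's interval. In Vehicle the gene was concentrated, with up to 74 UMIs in 1 cell against 16 and 23 in the other libraries. These class levels averaged over cells that differed widely, as the split of the stroma below shows.

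*Aldh1a2*, the enzyme known to supply retinoic acid in embryos and in some dendritic cells and macrophages, measured 20.2, 4.18 and 17.1 CPM in macrophages, from 411, 60 and 470 UMIs. Vehicle was the lowest of the 3. Palo stood 4.10-fold above Vehicle (3.13 to 5.45) and 1.18-fold below Matrigel-only (1.03 to 1.35). The share of macrophages with its UMI after thinning was 1.70%, 0.271% and 1.48%. When macrophages had to hold both *Csf1r* and *C1qa*, the levels fell to 6.87, 2.04 and 5.33 CPM. The log2 ratio of Palo over Vehicle then went from 1.27 to 0.55. That of Vehicle over Matrigel-only went from -1.46 to -0.75, so both came under the 2-fold limit. The 7 dendritic cell markers summed to 59.7, 152 and 67.6 CPM in macrophages, most of it *Cd209a*, with *Ccr7* at 0 in Matrigel-only, and their part in the *Aldh1a2* levels was not tested.

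The 2 binding proteins differed from each other. *Crabp1*, which binds retinoic acid in the cytoplasm and is linked to its breakdown, measured 16.6, 0.212 and 16.2 CPM in stromal cells, from 332, 5 and 257 UMIs. Vehicle was almost empty of it, and Matrigel-only and Palo were not apart, with a ratio of 0.980 (0.830 to 1.16). Palo was 76.6-fold above Vehicle (32.4 to 238). The gene was carried by few cells, 121, 5 and 89 with a UMI. Cells with at least 5 *Crabp1* UMIs, a limit set after the values were seen, were 21, 0 and 15 in number, and held 50.3% of the Matrigel-only UMIs and 51.8% of the Palo UMIs. In these cells *Il1rl1*, the receptor of interleukin-33, measured 203 CPM in Matrigel-only and 418 CPM in Palo, against 36.4 and 58.5 CPM in the other stromal cells. In macrophages *Crabp1* had 1, 0 and 2 UMIs.

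*Crabp2*, which passes retinoic acid to its receptors, measured 4.89, 9.75 and 12.4 CPM in stromal cells. Palo was 1.27-fold above Vehicle (1.04 to 1.54), with neighboring intervals that overlapped, and 2.53-fold above Matrigel-only (1.98 to 3.26), which came to 1.76-fold with 5 CPM added. The number of cells with a UMI was 65, 85 and 93. The thinned share of stromal cells with a *Crabp2* UMI was 0.969%, 1.78% and 2.36%, Vehicle and Palo within each other's interval. Within macrophages the gene stayed at or under 2.51 CPM.

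The 2 retinoic acid hydroxylases differed as well. *Cyp26b1* measured 46.5, 94.0 and 38.5 CPM in stromal cells, from 932, 2218 and 610 UMIs, with Vehicle highest and the 3 intervals apart. Palo was 2.44-fold below Vehicle (2.23 to 2.67) and 1.21-fold below Matrigel-only (1.09 to 1.34). The thinned share of cells with its UMI was 6.12%, 16.8% and 6.80%. In macrophages *Cyp26b1* measured 1.42, 6.55 and 0.765 CPM, which was 3.06%, 6.96% and 1.99% of its stromal level. The 10 stromal markers stood at medians of 0.843%, 1.45% and 0.590% of their stromal level in the same macrophages. The part of free stromal RNA in this value was not tested beyond a subtraction, after which the log2 ratio of Palo over Vehicle was -0.88 in place of -1.0 and no longer past 2-fold.

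*Cyp26a1*, the classic direct target of retinoic acid whose promoter is shown above, was rare. Stromal cells held 14, 20 and 34 of its UMIs, or 0.698, 0.848 and 2.15 CPM. Palo was the highest, 2.53-fold above Vehicle (1.42 to 4.64) and 3.08-fold above Matrigel-only (1.61 to 6.20), with all 3 levels under the 5 CPM limit of the count. The UMIs came from 11, 9 and 21 cells, and 8 of the 20 in Vehicle came from 1 cell. The thinned share of stromal cells with a *Cyp26a1* UMI was 0.207%, 0.189% and 0.582%, and the 3 intervals overlapped. Of the 21 Palo cells, 14 also held a *Cyp26b1* UMI (66.7%), against 12.8% of all Palo stromal cells, at median depths of 14351 and 12955 UMIs, an overlap examined after the values were seen. *Cyp26b1*-positive cells of Palo stroma held 11.3 CPM of *Cyp26a1* and the others 0.661 CPM. In Matrigel-only stroma the values were 3.16 and 0.393 CPM and in Vehicle stroma 0.607 and 1.02 CPM.

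**Figure D2:**
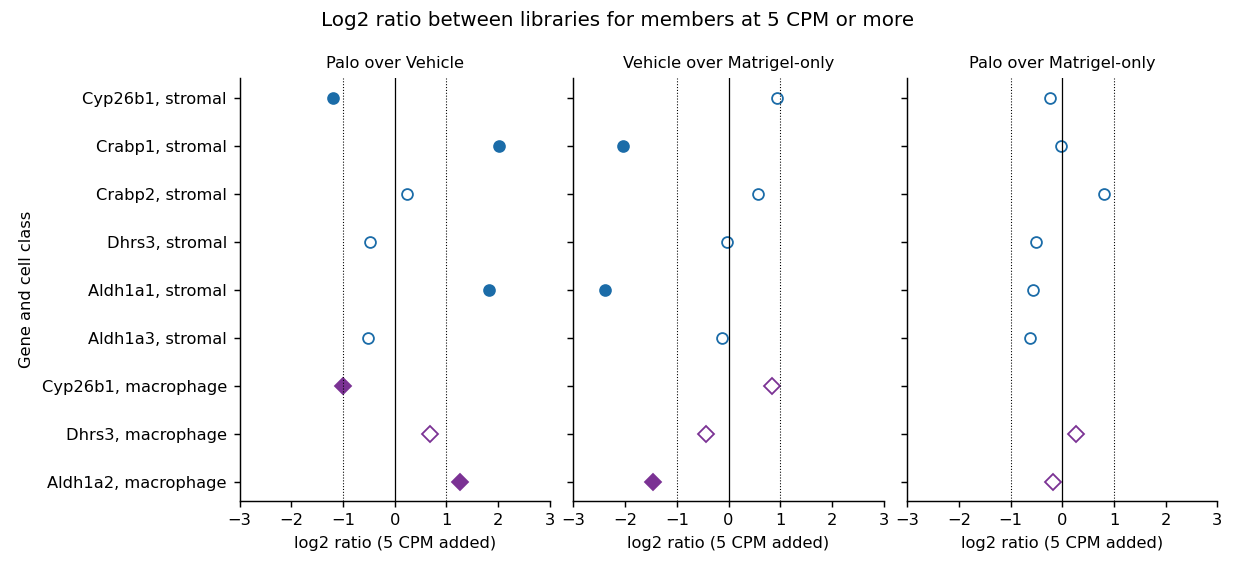
Log2 ratio of CPM with 5 CPM added for members that reached 5 CPM in either library, in stromal cells (circles) and macrophages (diamonds), for the 3 comparisons of libraries; filled points are past 2-fold (dotted lines). For Palo over Matrigel-only 0 points are filled, and *Crabp1* and *Aldh1a1* in stroma lie above 0 for Palo over Vehicle and below 0 for Vehicle over Matrigel-only. The comparisons share libraries.

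Stromal cells were split by the share of their UMIs from *Acan* and *Col2a1* (cartilage-gene cells, at least 0.05%), otherwise from the progenitor genes *Pi16*, *Clec3b* and *Dpp4* (progenitor-gene cells, at least 0.05%), and otherwise left as remaining cells. Cartilage-gene cells numbered 639 in Vehicle and 0 in the other libraries. Progenitor-gene cells numbered 1279, 119 and 412, and remaining cells 806, 615 and 772. The split is a range of expression and not a cell type, and 152 Vehicle cells lay within 2-fold of the cartilage limit and 350, 39 and 210 cells within 2-fold of the progenitor limit.

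*Aldh1a3* differed sharply by this split. In progenitor-gene cells it measured 154, 138 and 152 CPM, with overlapping intervals, and with limits of 0.02% and 0.1% it measured 126, 120 and 105 CPM and 186, 154 and 201 CPM, so the order there depended on the limit. In remaining cells it measured 14.4, 124 and 16.0 CPM, so that Vehicle stood 8.60-fold above Matrigel-only (7.20 to 10.3) and 7.73-fold above Palo (6.62 to 9.09). Vehicle cartilage-gene cells held 29.7 CPM. In the whole stroma *Igfbp5*, a growth factor binding protein gene, ranked first by the smallest ratio over the 3 libraries among the genes higher in *Aldh1a3*-positive cells, at 2786, 140 and 1996 CPM against 448, 32.8 and 280 CPM in the others. With limits of 0.02% and 0.1% the remaining cells of Vehicle held 131 and 111 CPM and those of Palo 15.0 and 16.8 CPM. Of the 615 remaining Vehicle cells 255 had an *Aldh1a3* UMI, and *Il11*, *Aqp1*, *Enpp1* and *Ank* were among the leading genes higher in them than in those without, a comparison added after the values were seen, at median depths of 20500 and 16791 UMIs. *Il11*, a cytokine gene, measured 81.8 CPM in the cells with *Aldh1a3* and 13.5 CPM in those without, and *Enpp1*, a phosphodiesterase that makes pyrophosphate, 183 and 63.4 CPM.

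*Aldh1a1* was highest in progenitor-gene cells, at 61.4, 37.4 and 49.4 CPM, and lower in remaining cells, at 14.6, 2.10 and 15.0 CPM. In progenitor-gene cells, at the limit of the split, the Palo and Vehicle intervals overlapped, with a ratio of 1.32 (0.984 to 1.80). With a limit of 0.02% progenitor-gene cells held 52.4, 32.5 and 34.6 CPM, and with 0.1% they held 70.6, 41.9 and 65.9 CPM. Palo thus stood above Vehicle at each limit, by an amount that depended on the limit. In remaining cells Palo was 7.16-fold above Vehicle (4.62 to 11.6) and level with Matrigel-only, with a ratio of 1.03 (0.816 to 1.30). Cartilage-gene cells held 2 UMIs, or 0.180 CPM. Progenitor-gene cells made up 61.3%, 8.67% and 34.8% of stromal cells, and how far these shares set the class levels was not tested.

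*Crabp1* belonged to remaining cells in the libraries that had it, at 28.9 and 21.6 CPM in Matrigel-only and Palo, against 0.273 CPM from 3 UMIs in Vehicle. The ratio of Palo over Vehicle in remaining cells was 79.0 (26.7 to 385). Progenitor-gene cells held 5.57, 1.31 and 3.06 CPM, values that moved with the limit, to 9.49, 1.10 and 12.6 CPM at 0.02% and to 1.04, 0 and 1.82 CPM at 0.1%. Cartilage-gene cells held 0 UMIs, which allows up to 0.270 CPM. *Aqp1*, a water channel gene, led the genes higher in *Crabp1*-positive Matrigel-only cells, at 355 CPM against 77.2 CPM in the rest. The positive cells were deeper, with a median of 15466 UMIs against 8789.5 in the rest.

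At the limit of 0.05% *Crabp2* stood higher in Palo than in Vehicle in progenitor-gene cells and lower in remaining cells, and at 0.1% it did not. In progenitor-gene cells it measured 1.70, 2.63 and 9.41 CPM, Palo 3.58-fold above Vehicle (1.30 to 13.7) and 5.54-fold above Matrigel-only (3.13 to 10.2). In remaining cells it measured 8.46, 18.4 and 13.6 CPM, Palo 1.35-fold below Vehicle (1.09 to 1.68). The Vehicle value in progenitor-gene cells rests on 4 UMIs in 119 cells. With a limit of 0.1% the progenitor-gene cells held 2.46 CPM in Vehicle and 1.21 CPM in Palo, the reverse order, and the remaining cells 15.8 and 15.3 CPM. With a limit of 0.02% the values were 2.75 and 13.3 CPM in progenitor-gene cells and 19.8 and 10.4 CPM in remaining cells.

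*Cyp26b1* in Vehicle was highest in cartilage-gene cells, at 132 CPM, where the thinned share of cells with a UMI was 25.1%. In remaining cells it measured 92.4, 67.4 and 53.1 CPM, so that Vehicle lay 1.37-fold below Matrigel-only (1.24 to 1.51) and Palo 1.27-fold below Vehicle (1.14 to 1.42). The order of Vehicle and Palo turned with a limit of 0.02%, at 60.0 and 66.8 CPM, and stayed with 0.1%, at 64.3 and 48.2 CPM. Matrigel-only remaining cells held 114 and 79.3 CPM with these limits, so Vehicle lay above Matrigel-only in the whole class and below it within remaining cells at all 3 limits. Progenitor-gene cells held 5.48, 9.85 and 2.63 CPM, and with a limit of 0.02% they held 11.2, 47.9 and 3.81 CPM. *Col11a1*, a collagen gene of cartilage, and *Mgp*, an inhibitor of mineralization, ranked first by the smallest ratio over the 3 libraries among the genes higher in *Cyp26b1*-positive stroma. Within remaining cells, also compared after the values were seen, *Grem1* and *Igfbp2* were among the leading genes in Matrigel-only and Palo and *Eln* and *Nov* in Vehicle. *Eln*, the elastin gene, measured 1334 CPM in the *Cyp26b1*-positive remaining cells of Vehicle and 117 CPM in the others, and 2178 and 804 CPM in Palo.

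*Dhrs3* was found in all compartments. Cartilage-gene cells held 64.3 CPM, progenitor-gene cells 69.8, 44.7 and 47.3 CPM, and remaining cells 54.1, 59.3 and 39.9 CPM. Palo was 1.49-fold below Vehicle in remaining cells (1.32 to 1.68) and not apart from it in progenitor-gene cells, with a ratio of 1.06 (0.802 to 1.41). In progenitor-gene cells the order of Vehicle and Palo turned with the limit, at 54.5 and 44.2 CPM with 0.02% and at 42.7 and 51.0 CPM with 0.1%. *Cyp26a1* in Palo was found in remaining cells, which held 33 of its 34 UMIs, or 2.93 CPM, 4.02-fold above the remaining cells of Vehicle (1.82 to 10.1).

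**Figure D3:**
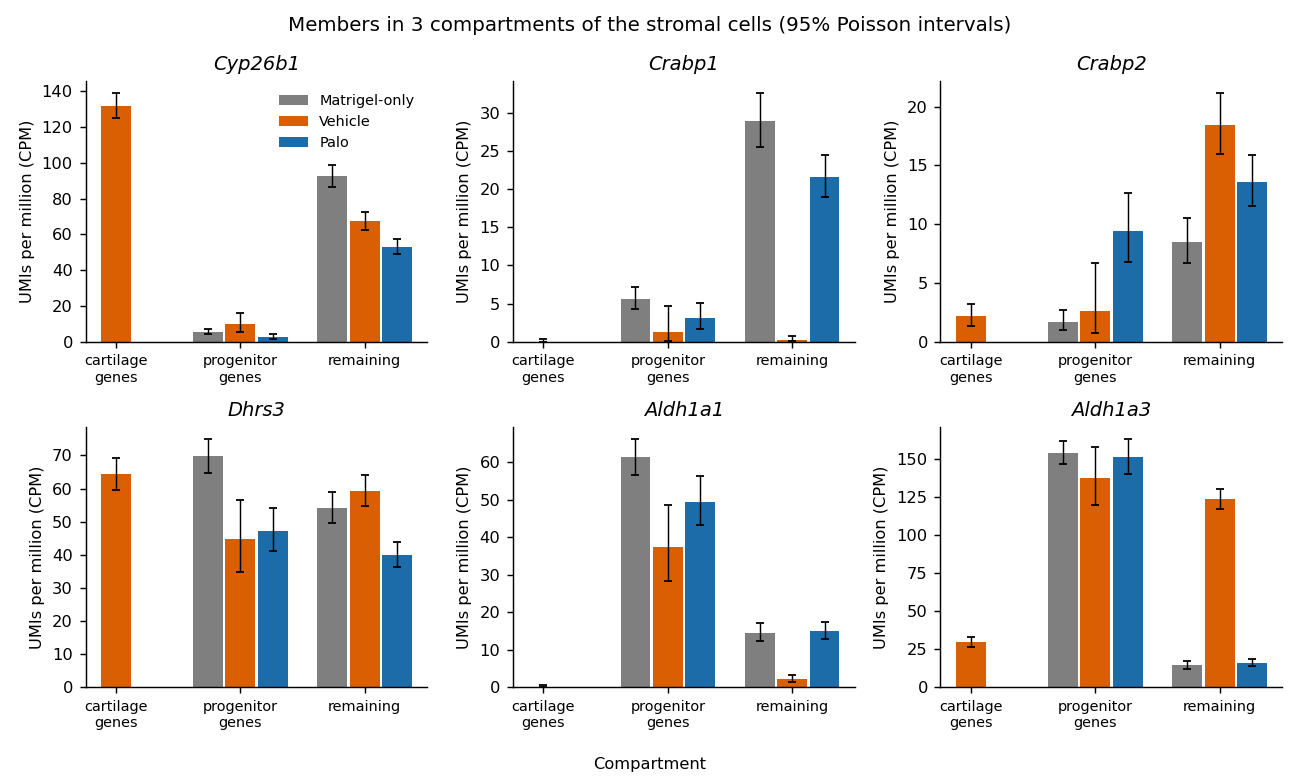
CPM of 6 members in cartilage-gene, progenitor-gene and remaining stromal cells, 1 bar for each library, with exact Poisson 95% intervals; cartilage-gene cells exist in Vehicle alone. *Aldh1a3* has overlapping intervals in progenitor-gene cells and stands at 124 CPM in the remaining cells of Vehicle against 14.4 and 16.0 CPM in Matrigel-only and Palo.

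Macrophages were split the same way at 0.05%, first by *Alox15*, *Prg4*, *Selp* and *F5*, genes known from peritoneal macrophages, then by *Mmp12*, *Itgax* and *Ear2*, then by *Ms4a7* and *Stab1*, a split chosen after the values were seen. The Palo level of *Dhrs3* was above the Vehicle level in all 4 compartments. In *Ms4a7*-gene cells *Dhrs3* measured 246, 225 and 304 CPM, a ratio of Palo over Vehicle of 1.35 (1.27 to 1.43). In *Mmp12*-gene cells it measured 179, 99.1 and 209 CPM, a ratio of 2.11 (1.83 to 2.44). In the remaining macrophages it measured 257, 129 and 300.5 CPM, a ratio of 2.33 (2.13 to 2.56). The small peritoneal-gene compartment, 49, 33 and 80 cells, held 298, 38.3 and 386 CPM. Its cells had median depths of 1776, 5482 and 4254 UMIs. In a shallow cell 1 UMI of the 4 genes can reach 0.05%, so the libraries are not alike in this compartment.

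*Aldh1a2* was mostly in *Mmp12*-gene cells, at 65.2, 16.3 and 47.9 CPM, and nearly absent from *Ms4a7*-gene cells, at 2.05, 0.408 and 1.39 CPM. In *Mmp12*-gene cells Palo was 2.94-fold above Vehicle (2.09 to 4.25) and 1.36-fold below Matrigel-only (1.16 to 1.60), so Vehicle was lowest within this compartment too. In the remaining macrophages it measured 20.6, 1.79 and 15.1 CPM, the same order. The peritoneal-gene compartment ran the other way, at 35.0, 46.0 and 2.78 CPM, from 4, 12 and 1 UMIs, with Vehicle highest. The *Mmp12*-gene cells made up 16.9%, 10.4% and 18.6% of macrophages. *Mmp12*, *Cd24a* and *Hr* ranked first by the smaller of their ratios in Matrigel-only and Palo among the genes higher in *Aldh1a2*-positive macrophages. *Mmp12* measured 733 CPM in positive and 115 CPM in negative cells of Matrigel-only, and 1082 and 224 CPM in Palo.

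*Cyp26a1* in macrophages was limited to 4, 1 and 13 UMIs. In Palo, 8 of the 13 lay in the 80 peritoneal-gene cells, a level of 22.2 CPM (9.59 to 43.8), in 4 of those cells. The same compartment held 0 UMIs in Matrigel-only and Vehicle, where 49 and 33 cells allow up to 26.3 and 11.5 CPM.

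**Figure D4:**
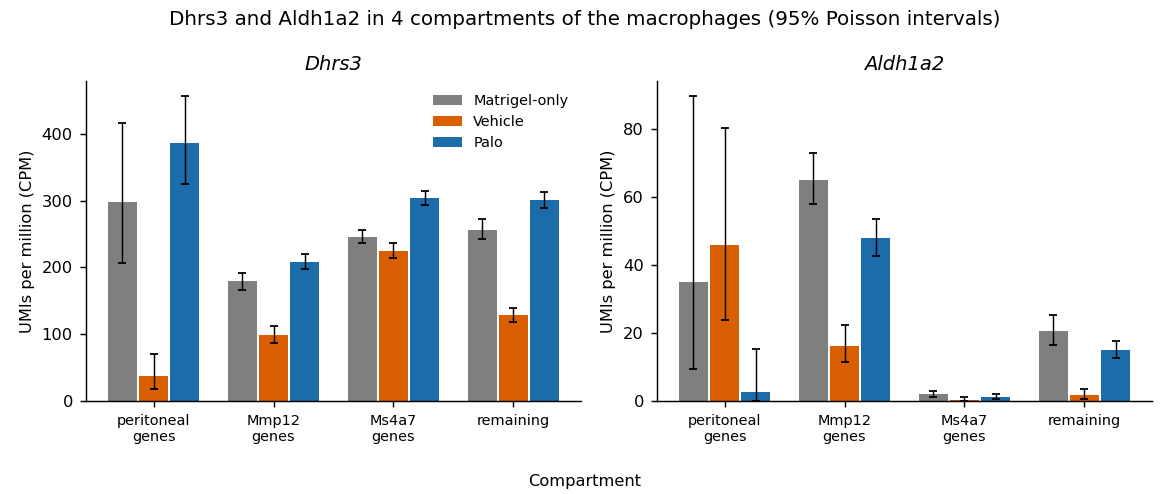
CPM of *Dhrs3* and *Aldh1a2* in 4 compartments of macrophages, 1 bar for each library, with exact Poisson 95% intervals. *Dhrs3* is higher in Palo than in Vehicle in each compartment, and *Aldh1a2* stands at 65.2, 16.3 and 47.9 CPM in *Mmp12*-gene cells.

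The wider pathway was a list of 47 other genes. In stromal cells 30 were tested for Palo over Vehicle, and 5 were past 2-fold higher (*Gata6*, *Lpl*, *Rarres2*, *Serpinb2*, *Thbd*) and 4 lower (*Fabp5*, *Rarres1*, *Rbp4*, *Tgfb2*), with a median log2 ratio of 0.11, beside 4.4% higher and 3.73% lower among all genes tested. For Vehicle over Matrigel-only 3 of 30 were higher and 4 lower, with a median of -0.16, beside 3.68% and 7.04%. For Palo over Matrigel-only 1 of 29 was higher and 2 lower, with a median of -0.04, beside 0.277% and 0.946%. The 7 tested dehydrogenases and reductases that interconvert retinol and retinal, and the 4 tested receptors, had 0 past 2-fold in stroma in each of the 3 comparisons. Of 10 tested genes known as retinoid-induced, *Rarres2* was past 2-fold higher and *Rarres1* lower for Palo over Vehicle. The reverse held for Vehicle over Matrigel-only, and 0 of 9 were past it for Palo over Matrigel-only. *Rarres1*, named after its value was seen because it reached 17.3 CPM at most, measured 0.150, 17.3 and 0.505 CPM. *Rarb*, whose promoter is shown above, measured 4.34, 1.06 and 3.22 CPM and was not tested. *Cyp26c1*, the third hydroxylase gene of the family, had 0 UMIs in stromal cells and macrophages of every library.

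*Rarres2*, which encodes the chemoattractant chemerin, measured 604, 137 and 429 CPM in stromal cells. *Fabp5*, a fatty acid binding protein that can carry retinoic acid to other receptors, measured 146, 892 and 286 CPM in stromal cells and 252, 1573 and 317 CPM in macrophages. In both classes Vehicle was past 2-fold above each of the other libraries. *Rbp4*, the secreted retinol carrier, measured 167, 295 and 142 CPM in stroma. *Rarg*, the receptor that palovarotene activates, measured 35.0, 49.9 and 33.4 CPM in stromal cells and 25.4, 27.0 and 27.8 CPM in macrophages.

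Genes that depend on retinoids in peritoneal macrophages were also found in stroma. *Thbd*, the thrombomodulin gene, measured 84.5, 5.04 and 27.4 CPM there, lowest in Vehicle. *Serpinb2*, a protease inhibitor gene, measured 8.33, 3.98 and 27.5 CPM, highest in Palo. *Tgfb2*, a growth factor gene, measured 56.8, 155 and 54.8 CPM, highest in Vehicle. *Lpl*, a lipase gene from the list for uptake and transport, measured 494, 66.4 and 223 CPM, lowest in Vehicle.

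In macrophages 23 pathway genes were tested for Palo over Vehicle, with 2 higher (*Alox15*, *Serpinb2*) and 3 lower (*Fabp5*, *Rara*, *Tgm2*), beside 0.906% higher and 3.3% lower among all genes tested. For Vehicle over Matrigel-only 3 of 23 were higher and 0 lower, beside 2.77% and 1.23%. For Palo over Matrigel-only 1 of 25 was higher and 1 lower, beside 0.443% and 0.721%. *Tgm2*, a transglutaminase that retinoic acid is known to induce, measured 6.83, 119 and 12.8 CPM, lowest in Matrigel-only and highest in Vehicle. *Rara*, the receptor alpha gene, measured 53.0, 82.8 and 30.3 CPM. *Alox15*, a lipoxygenase of peritoneal macrophages, measured 1.82, 28.8 and 71.0 CPM, in rising order from Matrigel-only to Vehicle to Palo. *Gata6*, the retinoid-dependent factor of those macrophages, stayed at 0.638, 0.279 and 2.08 CPM in macrophages and measured 20.7, 7.08 and 25.6 CPM in stromal cells.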

How the data were processed

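Cells from implants of 3 groups, 1 library each, were profiled by droplet sequencing. The authors deposited raw UMI counts per gene and barcode, made with Cell Ranger 3.0.2 on mm10 per the labels, which also name Seurat 3. The deposited counts held 9249 Matrigel-only, 6065 Vehicle and 7905 Palo barcodes and between 44252421 and 46901673 UMIs per library. The labels put each library in its group.

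Barcodes with 200 to 6000 genes and at most 5% mitochondrial UMIs were kept. UMIs were summed over the cells of a class and scaled to 1000000, so deep cells weigh more. Of the stromal cells 202, 69 and 53, and of the macrophages 322, 163 and 83, in the order Matrigel-only, Vehicle and Palo, were too shallow for thinning and left out of thinned shares. Between libraries the log2 ratio was taken with 5 CPM added, for genes with at least 5 CPM in either, and the plain ratio was given a 95% binomial interval conditional on the summed UMIs. Levels had exact Poisson and shares exact binomial 95% intervals, and a count of 0 was given the limit of 3 UMIs. All of these cover counting error only. With 1 library per group no test was made.

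All 9 members were named. Other pathway genes were named where they reached 20 CPM in either class of any library, and *Rarb*, *Rarres1*, *Cyp26c1* and *Aldh1a7* were named besides. Some genes that met these rules are not reported here. Genes most like a member, from members detected in at least 100 cells of a library, had at least 50 CPM in the positive cells of each such library and were ranked by the smallest ratio of CPM in positive to negative cells. The members, lists and rules were chosen with earlier results of these data known, and the macrophage compartments and comparisons within the remaining stroma after the values were seen.

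Doublets were kept. Scrublet (scanpy 1.11.5) at its own threshold called 1, 3 and 0 cells and had not worked, so an alternative left out its highest scores at 0.8% per 1000 cells, 609, 240 and 426 cells. Other alternatives changed the limits on cells and classes, the scaling (TMM in edgeR 4.0.16, size factors in DESeq2 1.42.0), the weight and depth of cells, the filter, fold and added CPM, and subtracted free RNA. The rule for calls past 2-fold was checked on simulated counts with known fold changes. Work was done in Python 3.11.15 (numpy 2.4.6, scipy 1.17.1, pandas 2.3.3, matplotlib 3.10.9) and R 4.3.3.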

Additional observations from a re-analysis of the deposited data

Results flagged for a closer look

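*Crabp2* differed between libraries in opposite directions in the stromal compartments: the log2 ratio of Palo over Vehicle was 0.92 in progenitor-gene cells and -0.33 in remaining cells. This held with a compartment limit of 0.05% and not with 0.1%, where progenitor-gene cells held 2.46 CPM in Vehicle and 1.21 CPM in Palo, and remaining cells 15.8 and 15.3 CPM. *Dhrs3* did so between classes, at -0.48 in stromal cells and 0.69 in macrophages for Palo over Vehicle, and at -0.52 and 0.26 for Palo over Matrigel-only. With 1 library per group these differences were not tested.

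Cells in neither class, left out of the comparisons, also held member UMIs above the limit that a count of 0 allows. *Dhrs3* measured 91.0, 48.4 and 116 CPM in those of Matrigel-only, Vehicle and Palo. *Aldh1a2* measured 45.8, 12.5 and 49.7 CPM. *Cyp26b1* stood at 13.0 CPM and *Aldh1a3* at 11.2 CPM in Vehicle, and *Crabp1* at 15.6 CPM in Palo, where 1 cell held all 22 of its UMIs. The Vehicle values also rest on few cells. Of 29 *Cyp26b1* UMIs 16 were in 1 cell, and the 25 *Aldh1a3* UMIs came from 11 cells, with up to 9 in 1 cell.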

How the results depend on the processing

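No paired analysis was possible because each group has 1 library, and for the same reason no library could be left out. Among 320 log2 ratios of members in the whole classes under the alternatives, 0 reversed a called direction, and 29 moved beyond their counting interval. For Palo over Vehicle in macrophages the count past 2-fold was 1 in place of 2 under several alternatives. *Cyp26b1* dropped out with mitochondrial shares up to 10%, with every barcode kept and with the class limit at 0.5%. It also dropped out with both scalings, with cells weighted equally and with free RNA subtracted. Equal weights over only the cells deep enough for thinning, a near copy of the equal weighting, gave the same. *Aldh1a2* dropped out with both *Csf1r* and *C1qa* required. The count was 0 with a filter of 20 CPM, where 68 of all 6408 genes tested were higher and 231 lower. Across the settings named with a count of 1, between 86 and 132 of all genes tested were higher. Between 250 and 350 were lower, in place of 89 higher and 324 lower. For Vehicle over Matrigel-only in macrophages the count was 2 in place of 1 with the class limit at 2%, at 1.5-fold and with 1 CPM added. *Cyp26b1* was higher besides. Among all genes tested 332, 680 and 414 were then higher and 126, 503 and 258 lower, in place of 275 and 122. With both *Csf1r* and *C1qa* required *Aldh1a2* was no longer past 2-fold in this comparison, at a log2 ratio of -0.75. In stroma the count was 1 in place of 2 for Vehicle over Matrigel-only with a filter of 20 CPM, without *Crabp1*. There 294 of all 6959 genes tested were higher and 593 lower. With that filter *Crabp1*, at 16.2 CPM in Palo, was also lost from the stromal count for Palo over Vehicle. In that comparison 381 of all 6795 genes tested were higher and 289 lower. For Palo over Matrigel-only in stroma the count was 2 at 1.5-fold (*Crabp2* higher, *Aldh1a3* lower) and 1 with 1 CPM added (*Crabp2*) in place of 0. Of all 10466 genes tested 145 were higher and 452 lower at 1.5-fold, in place of 29 and 99. With 1 CPM added 68 were higher and 218 lower. The cause of these changes was not tested beyond the alternatives' own construction. Smaller changes in the counts are not listed. For Vehicle over Matrigel-only *Cyp26b1* in stroma lay near the limit, with log2 ratios from 0.87 to 1.03 under the alternatives. Some of these were past 2-fold. *Aldh1a3* in stroma ranged from -0.87 to -0.01 on the log2 scale for Palo over Vehicle and from -0.64 to 0.23 for Vehicle over Matrigel-only, and its direction there was not stable.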

Other observations

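Among cells of neither class, *Aldh1a2* in Vehicle and Palo lay partly with *Ccr7*, a marker of migrating dendritic cells, in a comparison chosen after the values were seen. In Vehicle 25 of 28 *Aldh1a2* UMIs were in the 23 cells with a *Ccr7* UMI, 24 of them in 1 cell. In Palo 25 of 70 were in 21 such cells, 21 of them in 1 cell. In Matrigel-only 2 of 88 were in 5 such cells. Each of the larger counts rests on 1 cell, so these values describe single cells and not the libraries.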
